A study of Mus musculus with 2 samples.

Results

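The genes described here encode the proteins of the cytosolic ribosome, measured in regulatory T (Treg) cells, which hold immune responses in check. They were taken by name from the array annotation: probe sets that name 1 gene whose symbol is Rpl or Rps followed by a digit, with the Rps6k kinases left out, plus Rplp0, Rplp1, Rplp2 and Rpsa. No measured value entered this choice. It gave 107 probe sets for 51 genes, of 18193 genes with a probe set naming 1 gene. Of the 51 genes, 43 are core subunits of the ribosome, 21 of the small (40S) and 22 of the large (60S) particle. A further 5 are close relatives of a core gene (Rpl22l1, Rpl7l1, Rpl39l, Rpl3l and Rps27l), and 2 (Rps4l and Rps15a-ps6) are transcribed pseudogenes in RefSeq. Rps19bp1, which encodes a protein that binds a ribosomal protein, entered by its letters alone. No probe set naming 1 gene carried Rplp1.

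One array held RNA of CD4+CD25hi cells from spleens of miR-125a KO mice and 1 array RNA of the same cells from wild-type (WT) littermates, all mice being 6 to 8 weeks old. Each array read a pool of equal RNA amounts from several mice, so there are 2 samples in all, no replicate and no test between genotypes. CD4 T cells were enriched on magnetic beads before the sort. The labels give neither the number of mice in a pool nor the cells in which the deletion was made. The contrast is between Treg cells without and with this microRNA, whose own level was not analysed here, so the deletion was not checked. Signals are MAS5 units, which the authors scaled to the same trimmed mean on both arrays. A log2 ratio is that of the KO signal plus 16.3 over the WT signal plus 16.3, so values above 0 are higher in the KO pool. Genes were kept where their mean signal reached 62.3, the median over probe sets.

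The ribosome reads messenger RNA in its small particle and joins amino acids in its large one. Most of its proteins occur once per ribosome, and their genes are among the most strongly expressed in dividing cells. Their transcripts carry a run of pyrimidines at the very start, the TOP motif (terminal oligopyrimidine), through which the kinase complex mTORC1 sets how fast they are translated. Particles are put together in the nucleolus by a separate set of assembly factors, on ribosomal RNA made by RNA polymerase I. In T cells the whole system is enlarged on activation.

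The sequences shown are the deleted microRNA and the transcript starts of a few members. Member transcripts were not searched for matches to the microRNA. The mature miR-125a-5p lies at chr17:17830817-17830840 on the plus strand of GRCm38.p6, and its seed (bases 2 to 8) is in capitals.
miR-125a-5p: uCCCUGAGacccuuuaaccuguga
Starts are shown from 10 bases before to 20 bases from the RefSeq start, with CTTTC, a common core of the pyrimidine run, in capitals. Rps27 and its retrotransposed copy Rps27rt are shown because 1 probe set names both. Rps27l is the relative with the highest ratio among bright members. Rplp2 and Rpl38 stand for members with a clear pyrimidine start.
Rps27: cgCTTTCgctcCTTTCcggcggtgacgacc
Rps27rt: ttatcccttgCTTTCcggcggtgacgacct
Rps27l: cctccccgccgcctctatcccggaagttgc
Rplp2: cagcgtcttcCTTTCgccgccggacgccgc
Rpl38: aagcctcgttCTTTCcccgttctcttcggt
The windows lie at chr3:90213629-90213658 (minus strand) for Rps27, chr9:114982720-114982749 (minus) for Rps27rt, chr9:66946076-66946105 (plus, the first of 2 starts) for Rps27l, chr7:141447641-141447670 (plus) for Rplp2 and chr11:114668570-114668599 (plus) for Rpl38.

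The longest run of letters that Rps27 and Rps27rt share in their 300-base RefSeq start windows was 38 bases, against 10 bases for Rps27l and Rps27. CTTTC was searched on both strands of the 100 bases around each start, a motif chosen after the letters were seen. On the transcript's strand it occurred in 20 of 44 windows of 38 core genes matched by symbol, or 45.5%, against 12.8% of 32851 windows of all genes. On the other strand the shares were 6.82% for core genes and 12.1% for all genes. A start base C followed by 4 bases that are each C or T was found in 18.2% of core windows and 2.50% of all windows. Annotated starts can be a few bases off, so these counts describe the table and not transcripts in these cells. Among core genes with signals of 10000 or more, the median log2 ratio was 0.09 for the 14 with CTTTC and 0.07 for the 15 without it.

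The labelled cell type was checked on its markers. All 6 Treg markers were past the signal minimum, with a summed signal of 39947 in the KO and 37611 in the WT pool, a total made up mostly of Il2ra and Ctla4. Foxp3 was at 694 in KO and 1631 in WT cells, and Cd3e and Cd4 were lower in KO too, with log2 ratios of -0.41 and -0.15. Ikzf2 and Il2ra were higher in KO, with log2 ratios of 0.45 and 0.27, and Ctla4 was level at 0.02. Summed over their markers, B cells stood at 241 in KO and 266 in WT cells (1 of 3 markers past the minimum) and CD8 T and NK cells at 645 in KO and 887 in WT cells (2 of 3). Macrophages and monocytes stood at 312 in KO and 400.1 in WT cells (2 of 4), and platelets at 2789.9 in KO and 2264 in WT cells (3 of 3). Of the platelet markers Pf4 and Ppbp were higher in KO, at 0.50 and 0.37, and Itga2b lower, at -0.43. None of the 3 neutrophil markers (24.3 in KO and 148 in WT cells) and 2 erythroid markers (7.03 in KO and 10.8 in WT cells) was past the minimum. What other cells contribute to the ribosomal protein values was not tested. In pooled bulk RNA, a change in the number of cells of a type and a change in RNA per cell cannot be told apart.

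Core ribosomal protein genes were nearly level between the pools. Of the 43, 42 were past the signal minimum, and 30 of these were above 0, or 71.4%, against 51% of all 10590 genes past the minimum. Their median log2 ratio was 0.08, a 1.06-fold difference, and that of all genes was 0.01. A 1.2-fold excess in the KO pool was reached by 2 core genes, Rpl12 and Rps25, against 20.5% of all genes. A 1.2-fold deficit was reached by 3, Rpl37, Rpl39 and Rps27, against 19.8%. Such folds were rarer at high signals, and 34 of the 42 core genes had mean signals of at least 20000. Of 53 genes outside the rule with mean signals of at least 20000, 2 were 1.2-fold higher and 0 lower. Among the 49 genes of the rule past the minimum, 0 were 2-fold or more above WT (1.08% of all genes), and 1, Rps27, was 2-fold or more below it (1.2%). The share above 0 depended on how the arrays were scaled. It was 81% with arrays scaled to equal medians, 50% with quantile normalization and 52.4% with loess. In quantile normalization the core median was 0.03 below that of all genes, a difference of -0.03, and in loess the difference was -0.02.

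**Figure D1:**
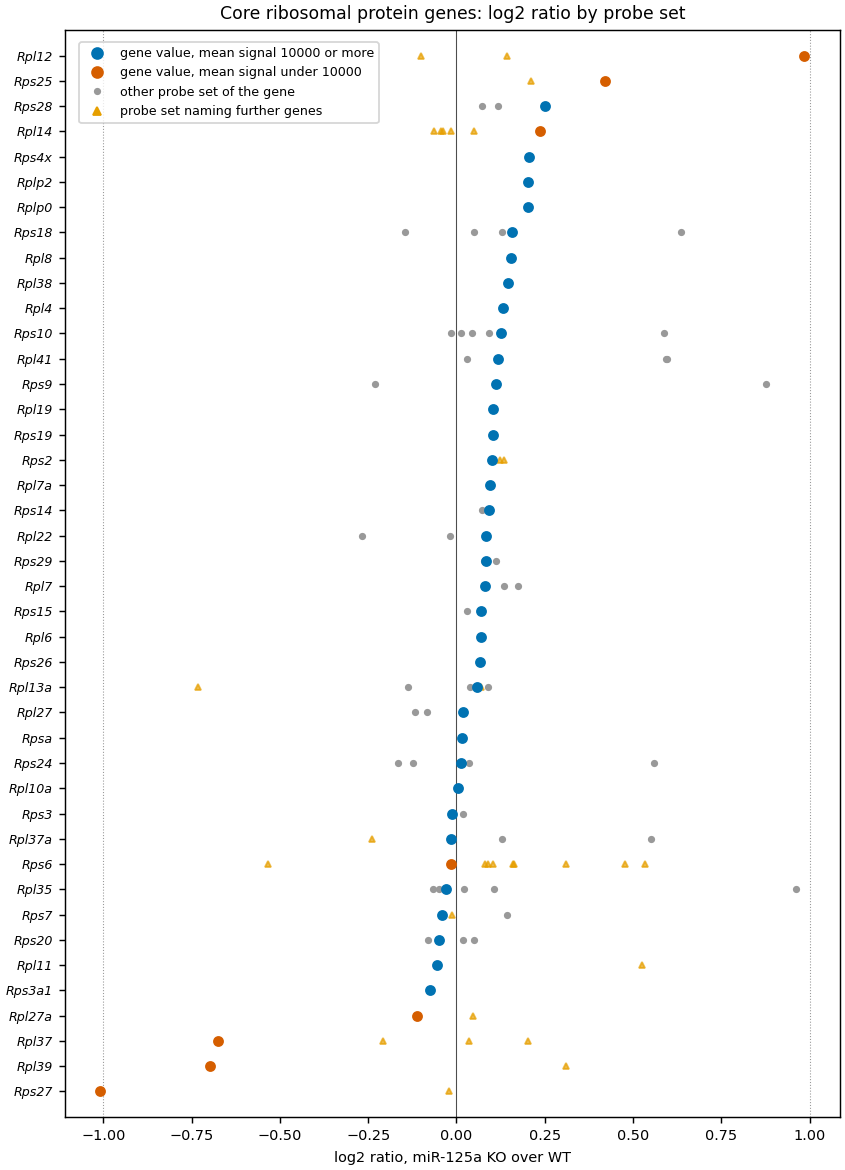
Log2 ratio of KO over WT (horizontal axis) for the 42 core genes past the signal minimum, sorted by ratio; large points are gene values (blue, mean signal of 10000 or more; orange, under 10000), small grey points other probe sets of the gene past the minimum and triangles probe sets that name further genes. Blue points lie between -0.07 and 0.25, and the outermost points at both ends, Rps27 at -1.01 and Rpl12 at 0.99, are orange.

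The core genes fell into a bright and a dim group of probe sets. For 34 genes the probe set used had a mean signal of at least 10000, with values from 23750 to 46157 in the KO pool (median 33796) and from 22680 to 43588 in the WT pool (median 32792). The log2 ratios of these 34 ran only from -0.07 to 0.25, with an SD of 0.08, and 0 of them reached 1.2-fold in either direction. In the other 8 the probe set used was dim, with KO signals from 213 to 4040 and WT signals from 355 to 6458, and their ratios spread from -1.01 to 0.99. All 5 core genes past 1.2-fold were in this dim group. The level of 10000 was chosen after the values were seen. Signals of different probe sets depend on their probes and are not compared here as transcript amounts.

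For the bright genes the error can be read from the arrays themselves. Of the 34, 17 had at least 2 bright probe sets, 49 in all. Their log2 ratios differed within a gene by a median of 0.14 and by at most 0.34, in Rps9. The pooled SD within a gene was 0.08, as large as the SD of 0.08 between the 34 genes. The order of the bright genes is therefore not separated from the spread between probe sets of a gene. In 7 of the 17 genes all bright probe sets were above 0, in none were all below 0 and in 10 they went both ways. This spread leaves out variation between mice and error that probe sets share.

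Genes outside the rule with such signals had similar values. The 34 bright core genes all had mean signals of at least 20000, and 27 of them, or 79.4%, were above 0 with a median log2 ratio of 0.08. Of 53 genes outside the rule with a mean signal of at least 20000, 42 or 79.2% were above 0, with a median of 0.09 and an SD of 0.10. A 1.2-fold excess was reached by 2 of the 53 and a 1.2-fold deficit by 0, and by 0 of the 34 either way. These 53 include other genes of translation, such as Eef1a1, Eef2, Eif5a and Fau, so they are not a set apart from it. Of the 100 brightest probe sets of the arrays, 76 named a core gene. What share of the small positive ratio goes with signal was not tested.

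**Figure D2:**
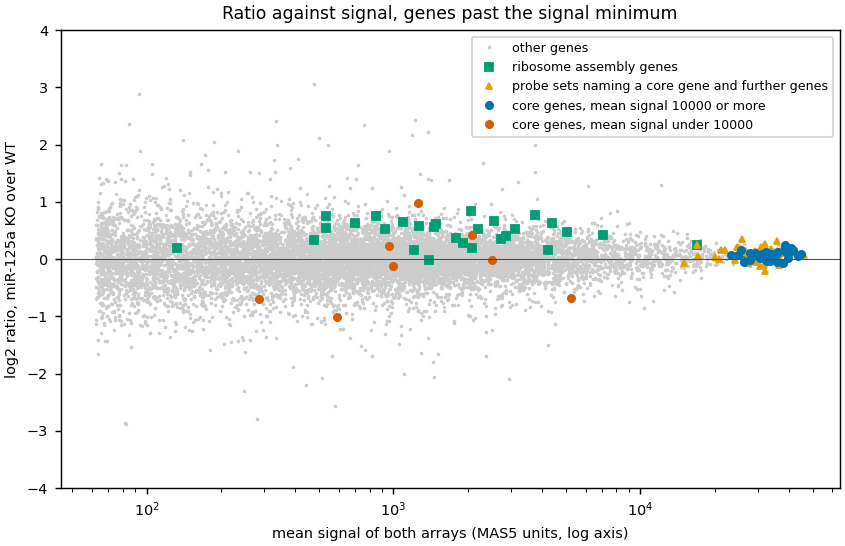
Log2 ratio of KO over WT against mean signal of both arrays (log axis) for genes past the minimum; grey points are other genes, blue and orange points core ribosomal protein genes above and below a signal of 10000, triangles bright probe sets that name a core gene and further genes, and green squares ribosome assembly genes. Blue points and triangles lie in a narrow band at the right end, near 0, while most green squares lie above 0 at middle signals.

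Of the stalk of the large particle, which brings translation factors to the ribosome, Rplp0 and Rplp2 had the highest ratios of bright genes in that particle. Rplp0, its base, had signals of 41167 in the KO and 35765 in the WT pool, and Rplp2 had 43515 in KO and 37793 in WT cells. Both log2 ratios were 0.20, each from the gene's only probe set. The probe-set SD was 0.16, the typical SD between probe sets of a gene over all signals from 4214 to 41824. Over core genes with several bright probe sets, the pooled SD within a gene was smaller, at 0.08. With quantile normalization the log2 ratios were 0.09 for Rplp0 and 0.08 for Rplp2, and with loess 0.12 for both. The remaining stalk gene, Rplp1, was read by a probe set that also names Gm13777, at 33550.0 in KO and 31146 in WT cells, a ratio of 0.11.

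Other bright genes of the large particle lay between Rpl11, at -0.05, and Rpl8, at 0.16. Rpl38, which in mouse embryos favours translation of Hox messages, stood at 43031 in KO and 38906 in WT cells, a log2 ratio of 0.15 (0.02 with quantile normalization and 0.06 with loess). Rpl11, which with Rpl5 can bind Mdm2 and so stabilise p53, stood at 25779 in KO and 26777 in WT cells. Rpl13a, one of the brightest members, had 44208 in KO and 42503 in WT cells, and its 4 bright probe sets ran from -0.14 to 0.09. Rpl10a, which is missing from some ribosomes of mouse embryonic stem cells, was level at 32201 in KO and 32092 in WT cells. Rpl4, which lines the tunnel through which new proteins leave, had 37692 in KO and 34424 in WT cells, a ratio of 0.13. Rpl6, Rpl7, Rpl7a, Rpl19, Rpl22, Rpl27, Rpl35, Rpl37a and Rpl41 lay between these limits, with ratios of -0.03 to 0.12. Across the 17 bright genes of the large particle 14 were above 0, with a median of 0.08. Among genes outside the rule with signals of at least 20000, 79.2% were above 0.

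In the small particle, Rps28 and Rps4x had the highest ratios of bright genes. Rps28 stood at 41889.9 in KO and 35230 in WT cells, a log2 ratio of 0.25, but its other probe sets gave 0.07 and 0.12. Rps4x, encoded on the X chromosome, stood at 41377 in KO and 35905 in WT cells, at 0.20. The lowest bright gene was Rps3a1, at 36848 in KO and 38808 in WT cells, a ratio of -0.07. With quantile normalization the ratios were 0.14 for Rps28, 0.09 for Rps4x and -0.17 for Rps3a1, and with loess 0.17, 0.12 and -0.16. Rpsa, also known as the laminin receptor precursor, was level at 39865 in KO and 39419 in WT cells, and Rps29, the brightest member, had 46157 in KO and 43588 in WT cells. Rps18 had 43682 in KO and 39140 in WT cells, a ratio of 0.16. Rps19, the gene most often mutated in Diamond-Blackfan anaemia in humans, stood at 30299 in KO and 28218 in WT cells, at 0.10. Rps26, mutated in the same disease, stood at 23750 in KO and 22680 in WT cells, at 0.07. Rps2, Rps3, Rps7, Rps9, Rps10, Rps14, Rps15, Rps20 and Rps24 ran from -0.05 to 0.13.

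The particles had close medians. Over genes past the minimum the median log2 ratio was 0.08 for 20 genes of the small and 0.08 for 22 genes of the large particle, a difference of -0.0050. Its sign turned, to 0.0058 with quantile normalization and 0.0011 without a filter. Among bright genes 13 of 17 in the small particle were above 0, against 79.2% of genes outside the rule with signals of at least 20000. The core genes of the rule are spread over 15 chromosomes.

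The 8 dim genes held every core ratio past 1.2-fold, and each of them was also named by a bright probe set that carries further genes. These shared probe sets are outside the rule because a signal cannot be given to 1 of the named genes. Rps27 is the clearest case. Its own probe set stood at 387 in KO and 796 in WT cells, 2.01-fold lower, its log2 ratio being -1.01 (probe-set SD 0.27). The probe set that names Rps27 and Rps27rt stood at 27534 in KO and 27926 in WT cells, a ratio of -0.02.

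The same held for the other end of the order. Rpl12 was 1.98-fold higher by its own probe set, at 1669 in KO and 835 in WT cells, or 0.99 on the log2 scale (probe-set SD 0.20). A probe set that also names Gm15793, Gm32899 and Gm11425 stood at 35175 in KO and 37717 in WT cells, at -0.10, and a second bright one gave 0.14. Rpl39, encoded on the X chromosome, stood at 213 in KO and 355 in WT cells by its own probe set, at -0.70 (SD 0.32), whereas the shared probe set, at 39676 in KO and 31986 in WT cells, went the other way with 0.31. With the brightest probe set of each gene, shared ones included, that is the highest ratio of a core gene. A less bright shared probe set of Rps21, at 29003 in KO and 22579 in WT cells, gave 0.36, where the brightest of Rps21 gave 0.04.

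Rpl37 had 4040 in KO and 6458 in WT cells by its own probe set, at -0.67 (SD 0.16). Its bright probe sets, which name Rpl37rt as well, disagreed at -0.21 and 0.20. Rps25 was higher by both kinds, at 2392 in KO and 1784 in WT cells (log2 ratio 0.42) and at 26373 in KO and 22802 in WT cells (0.21). By their brightest shared probe set Rpl14, Rpl27a and Rps6 were smaller cases. Their own ratios were 0.24, -0.11 and -0.01 and the shared ratios -0.04, 0.05 and 0.10. Less bright shared probe sets of Rps6 ran from -0.53, at 54.8 in KO and 86.6 in WT cells, to 0.53, at 3763 in KO and 2596 in WT cells. By its own probe set Rps6, the substrate after which the S6 kinases are named, stood at 2486 in KO and 2512 in WT cells. Rps16 was the 1 core gene below the minimum, at 7.56 in KO and 1.07 in WT cells, with no ratio given, while its shared probe set stood at 40247 in KO and 38962 in WT cells.

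**Figure D3:**
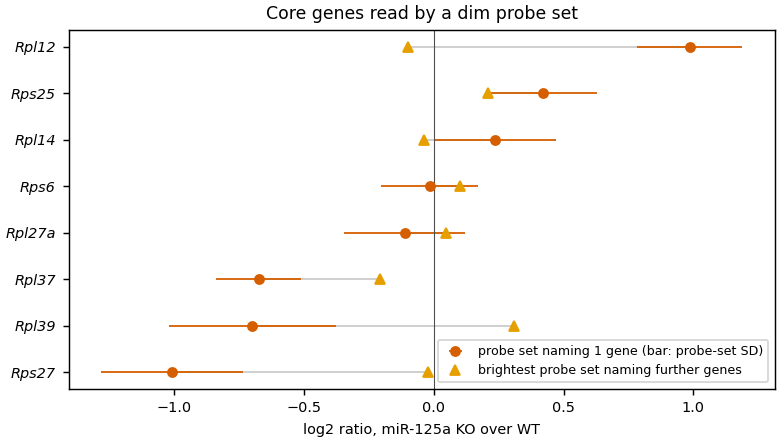
Log2 ratio of KO over WT for the 8 core genes whose own probe set was dim; circles are the probe set that names 1 gene, with a bar of 1 probe-set SD on each side, and triangles the brightest probe set that names the gene with others. Circles run from -1.01 to 0.99 and triangles from -0.21 to 0.31.

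With the shared probe sets, 70 core genes could be read, all with mean signals above 20000, 38 of them through a shared probe set. Their log2 ratios ran from -0.21 to 0.31 with a median of 0.07, and 55 of the 70, or 78.6%, were above 0. Of the 53 genes outside the rule with mean signals of at least 20000, 79.2% were above 0, with a median of 0.09. Rpl39, at 1.24-fold, was the 1 gene of the 70 to reach 1.2-fold above WT, and 0 reached it below. Of the 53 other genes, 2 reached it above and 0 below. This reading was added after the data were seen. A further 7 core genes of a list of 77 were not analysed here.

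In 10 further core genes a bright probe set stood beside dim ones past the minimum, whose log2 ratios ran from -0.27 to 0.96. The highest was that of Rpl35, whose dim probe set had 129 in KO and 58.2 in WT cells. The brightest probe set of Rpl35, at 32218 in KO and 32865 in WT cells, gave -0.03. Rps9 had a dim probe set at 667 in KO and 356 in WT cells, with 0.88, while its bright ones gave 0.11 and -0.23. Rpl22, Rps18 and Rps20 had a dim probe set below their brightest one, at -0.27, -0.14 and -0.08, although a further dim one of Rps18 gave 0.64. Over all 21 dim probe sets of core genes past the minimum, the median was 0.24 and 13 were above 0, against 51% of all genes. At least 1.2-fold higher were 10 of the 21, against 20.5% of all genes, and 4 were at least 1.2-fold lower, against 19.8%. The annotation does not say which part of a transcript the dim probe sets read.

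Among relatives of core genes, Rps27l and Rpl7l1 were higher in the KO pool by all of their probe sets. Rps27l, a p53 target in human cells that differs from Rps27 by a few residues, stood at 12712 in KO and 10114 in WT cells, a log2 ratio of 0.33 (probe-set SD 0.16). Its other probe sets, which can share transcripts with the first, stood at 12257 in KO and 8740 in WT cells (0.49) and at 11970 in KO and 8315 in WT cells (0.52). Each of the 3 was above every bright core probe set naming 1 gene, the highest of which was 0.25. A shared probe set of Rps21, at 0.36, was above the first. The 3 had lower signals than the 34 bright core genes. Among genes outside the rule, the SD of log2 ratios was 0.19 at signals of at least 10000 and 0.10 at 20000 or more. The first Rps27l probe set gave 0.32 with quantile normalization and 0.28 with loess. Rpl7l1, a relative of Rpl7, stood at 1741 in KO and 1326 in WT cells, at 0.39 (SD 0.20), with its other probe sets at 0.28 and 0.42. Rpl7 itself had 34054 in KO and 32216 in WT cells, at 0.08.

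Rpl22 and Rpl22l1 differed little, with no test possible. Rpl22, which mouse T cell precursors of the alpha-beta lineage need, stood at 35180.4 in KO and 33211 in WT cells, and Rpl22l1, which can take its place, at 20033 in KO and 18895 in WT cells. Both log2 ratios were 0.08, but the other bright probe set of Rpl22 gave -0.02, and averaging all 3 gave -0.07. Rps4l was at 278 in KO and 175 in WT cells, a ratio of 0.62 with a probe-set SD of 0.32, whereas Rps4x gave 0.20. Rpl39l, known as a testis form, was at 135 in KO and 163 in WT cells, at -0.24 (SD 0.38), and Rps15a-ps6 at 73.3 in KO and 80.0 in WT cells. Rpl3l, the muscle form of Rpl3, was below the minimum at 21.9 in KO and 4.08 in WT cells. Rps19bp1 had 1126 in KO and 953 in WT cells, at 0.24.

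**Figure D4:**
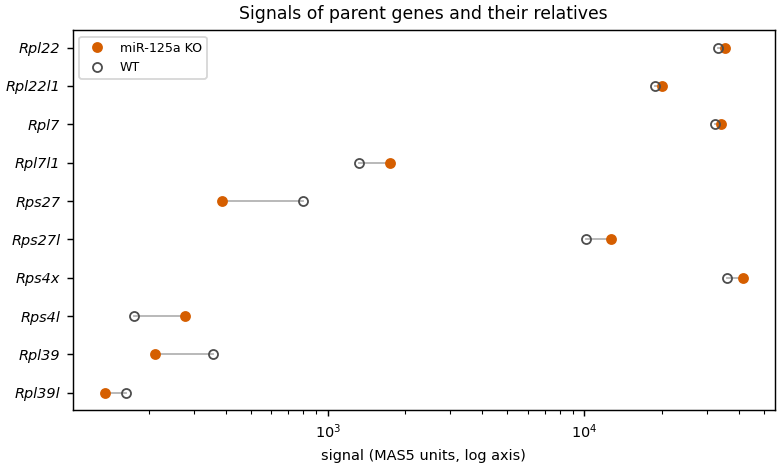
Signals in KO (filled) and WT (open) pools on a log axis for 5 core genes, each followed by its relative, by the probe set that names 1 gene; signals of different probe sets are not on a common scale of transcript amount. Rps27l, Rpl7l1 and Rps4l show the KO point to the right of the WT point, and Rps27, Rpl39 and Rpl39l to the left.

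Other transcripts that start with the TOP motif were nearly level too. Of 19 measured genes, 15 were above 0, against 51% of all genes and 79.2% of other genes with signals of at least 20000. That last group is not matched to the 19. Some of the 19 were dimmer, such as Eif4b with a mean signal of 6349, and others, such as Eef1a1, belong to that group. A 1.2-fold excess was reached by 1 of the 19, against 20.5% of all genes, and a 1.2-fold deficit by 0, against 19.8%. Both were rarer in bright genes. Of 315 genes outside the rule with mean signals of at least 10000, 28 were 1.2-fold higher and 15 lower. This group is not matched to the 19 either. The median log2 ratio of the 19 was 0.05, and that of all genes 0.01. That median was below 0, at -0.02 with quantile normalization and -0.01 with loess. Eif3l, a subunit of initiation factor eIF3, had the highest ratio at 0.28 and Tpt1, the translationally controlled tumour protein, followed at 0.25, with 39394 in KO and 33187 in WT cells. Eif3h and Eif3k had the lowest, at -0.11 and -0.05. Fau, whose product is cleaved into a ribosomal protein of the small particle, stood at 32811 in KO and 31999 in WT cells.

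Ribosome assembly genes, in contrast, were higher in the KO pool nearly throughout. All 29 were past the minimum. Of these, 28 were above 0, against 51% of all genes, and 22 were at least 1.2-fold higher, against 20.5%. At least 1.5-fold higher were 9 of 29, against 5% of all genes, and 0 reached 1.2-fold below WT, against 19.8%. Their median log2 ratio was 0.52, a 1.44-fold difference, and it stayed between 0.41 and 0.56 in the alternative settings. Of 24 assembly genes with signals between 500 and 6000, 20 were at least 1.2-fold higher, as were 18.03% of 5797 other genes in that range.

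Nolc1, a chaperone of small nucleolar ribonucleoproteins, had the highest ratio, at 2645 in KO and 1477 in WT cells, 0.83 on the log2 scale (probe-set SD 0.21). Its other probe sets gave 0.83 and 0.86. Dkc1, which makes pseudouridine in ribosomal RNA, stood at 4726 in KO and 2755 in WT cells, at 0.77 (SD 0.19). At the low end were Sbds, which helps release Eif6 from the large particle, with 1380.03 in KO and 1400.1 in WT cells (log2 ratio -0.02), and Npm1, at 0.09, which the TOP list also holds. The genes named next were chosen after their values were seen. Fbl, the methyltransferase of box C/D particles, and its partners Nop56 and Nop58 had ratios of 0.42, 0.64 and 0.53. Pes1, Bop1 and Wdr12, which form a complex needed for the large particle, had 0.52, 0.65 and 0.76. Of 22 assembly genes with further probe sets past the minimum, 18 had all of them above 0. Further probe sets of Pes1, Bop1 and Wdr12 gave 0.07, -0.16 and -0.35, and those of Ncl and Nmd3 reached -0.32 and -1.04.

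RNA polymerase I, which makes the precursor of ribosomal RNA, and its factors went both ways. Of 13 genes 9 were above 0, against 51% of all genes, 5 reached 1.2-fold above WT, against 20.5%, and 0 reached it below, against 19.8%. The lowest, Taf1b, was at -0.26. Polr1b, a large catalytic subunit, was 2.36-fold higher at 594 in KO and 242 in WT cells, with a log2 ratio of 1.24 (SD 0.28) from its only probe set. Ubtf, which binds ribosomal DNA, stood at 1832 in KO and 1286 in WT cells, at 0.51. Taf1d had -0.21, with its further probe sets running from -0.36 to 0.73. The list's median was 0.21, or 0.33 without probe sets marked _s_at or _x_at, which can match several transcripts.

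Translation initiation factors and regulators of the pathway had medians nearer 0 than assembly genes. Of 16 initiation factors 14 were above 0, against 51% of all genes, with a median of 0.19. The 4 that were at least 1.2-fold higher are a share near the 20.5% of all genes. Eif3b and Eif1ax led with 0.47 and 0.34, and Eif5 and Eif3m were last with -0.02 and -0.002, although a further probe set of Eif3m gave 1.38. Further probe sets of Eif1ax gave -0.21 and 0.43. Of 14 genes of mTORC1, Myc and TOP control 10 were above 0, against 51% of all genes, with a median of 0.14. The 3 that were at least 1.2-fold higher are again a share near that of all genes, 20.5%. Rps6kb2, a kinase of Rps6, had 210.03 in KO and 149 in WT cells (0.45, SD 0.38), Tsc2 had 0.30, and Tsc1 and Larp4 had -0.20 and -0.09. Both further probe sets of Larp4 went the other way, at 0.17 and 0.25. Myc, a transcription factor that drives ribosome genes and was named after its value was seen, stood at 8901 in KO and 9274 in WT cells, at -0.06.

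**Figure D5:**
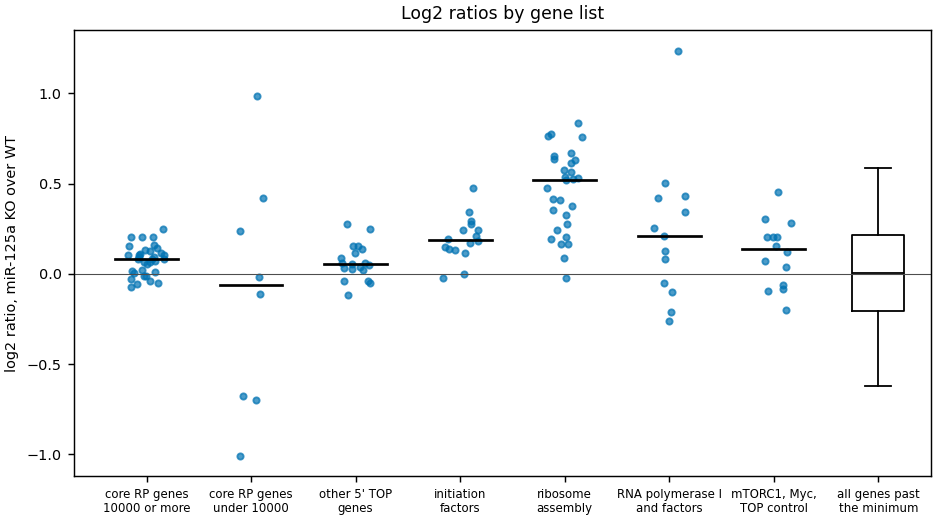
Log2 ratios of KO over WT for core ribosomal protein genes (RP genes, by signal) and 5 other gene lists; each point is a gene past the minimum, the bar is the median, and the box on the right gives the quartiles of all genes with whiskers at the 5th and 95th percentiles. The median is 0.08 for bright core genes, 0.05 for other TOP genes and 0.52 for ribosome assembly genes.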

How the data were processed

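The values that the authors deposited are log2 signals of the 45101 probe sets of the Affymetrix Mouse 430 2.0 array, made with MAS5 per the submitters' processing notes, with no version given. MAS5 subtracts mismatch signal, so dim values vary widely, and the lowest value, a signal of 1, was held by 473 probe sets in KO and 552 in WT cells. Back on the linear scale, the mean after trimming 2% at each end was 500.0 on both arrays. The number of arrays, 1 per genotype, limits the precision.

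Probe sets were named from the platform annotation, and all 51 genes of the rule matched RefSeq (GRCm38.p6) by gene ID. A gene's value is its probe set of highest mean signal. The pseudocount of 16.3 is the 25th percentile of signal, and the minimum is 62.3. The probe-set SD is the typical SD between probe sets of a gene in the same of 10 signal groups, and measures no variation between mice. The highest group is wide, from 4214 to 41824. Genes named were the 6 highest, 6 lowest, 4 brightest and 4 dimmest core genes, those whose probe sets differ by 1 or more, the stalk, Rpsa, and relatives with their parents, plus the highest and lowest 2 of each list. Any other gene given with a value was named after its value was seen. Members, lists and thresholds were chosen with earlier results of these data known. Calculations used Python 3.11.15, numpy 2.4.6, pandas 2.3.3, scipy 1.17.1 and statsmodels 0.14.6 and were tested on simulated data. Other scalings, pseudocounts, filters and choices of probe set were tried.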

Additional observations from a re-analysis of the deposited data

How the results depend on the processing

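With 1 array per genotype no setting carries a test, dim signals limit the large ratios, and bright ones may approach saturation. Core genes at least 1.2-fold above WT numbered 4 with arrays scaled to equal medians, 5 without _s_at and _x_at probe sets and 1 at a fold of 1.5. Genes of the rule at least 2-fold above WT numbered 1 with equal medians, quantile normalization or loess, and 2 at a fold of 1.5. Those at least 2-fold below WT numbered 0 with equal medians, quantile normalization, loess or a pseudocount at the median signal, and 3 at a fold of 1.5. The difference of small and large particle medians turned to 0.0058 with quantile normalization and 0.0011 without a filter. The settings with shared probe sets and with a signal minimum of 10000 were added after the data were seen. So were the results for the other gene lists. With probe sets naming several genes, 55 of 70 core genes were above 0, 1 was at least 1.2-fold above WT and 0 were at least 1.2-fold below it. In that setting 0 genes were at least 2-fold below WT. With a signal minimum of 10000, 0 core genes reached 1.2-fold either way and 0 reached 2-fold below WT. The median of other TOP genes turned to -0.016 with quantile normalization and -0.011 with loess. Assembly genes past 1.5-fold numbered 9. Rpl35 moved to 0.16 with the mean over probe sets and Rps9 to 0.88 without _s_at and _x_at probe sets. The cause was not tested. No paired analysis was possible because the labels give no replicate numbers and each group has 1 array.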
